A study of Glycine max with 4 samples.

Results

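The regions described here are the binding sites of the soybean protein GLYMA.13G317000 that lie in the middles of chromosomes, in developing embryos. A site counted when peaks of both replicates overlapped by at least 1 bp, and it was placed in the middle when its midpoint fell from 30% to under 70% of the chromosome's length, measured to the last peak end in either peak list. Chromosomes 10, 13 and 20 were left out by the same rule, which leaves 17 of the 20 chromosomes. The middles held 3157 of the 23982 shared regions on these chromosomes (13.16%), the outer parts held 20825, and the whole series, with all 20 chromosomes, held 28903. The middles made up 321.2 Mb and the outer parts, at 30% of the length on either side, 481.8 Mb.

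The series consists of 4 libraries from embryos of the cultivar Williams 82, dissected at early maturation from plants grown in a greenhouse. Both ChIP libraries were made with an antibody against a peptide of GLYMA.13G317000, and both input libraries from chromatin that was set aside before the antibody was added. All 4 share cultivar, stage and growth conditions, so no genotype or treatment is compared, and the input served as the only control. The peak lists are of ChIP replicate 1, with 47284 peaks, and ChIP replicate 2, with 30289 peaks. Chromatin immunoprecipitation with sequencing (ChIP-seq) counts DNA fragments bound by a protein, and a peak is a stretch where fragments of the ChIP library exceed their local background.

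The peak names carry BZIP67. In Arabidopsis, bZIP67 is a basic leucine zipper transcription factor of the maturing seed that acts with other regulators of storage protein and oil genes; that the soybean protein has the same role is not stated in the labels. Basic leucine zipper proteins bind DNA as dimers, often at sequences with an ACGT core. Soybean chromosomes are known for long central stretches that are rich in repeats, poor in genes and low in recombination, flanked by arms that hold most genes. The middles used here were set by length alone and need not coincide with those stretches or with the centromeres. The sources used here do not give the genome build of the positions, so the genes and sequences beneath them were not analysed here.

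Shared regions were sparse in the chromosome middles. They are places where peaks passed the authors' threshold in both lists, so their density need not equal that of binding. There were 9.83 shared regions per Mb in the middles, against 43.2 per Mb in the outer parts, a ratio of 0.227. Each library alone gave nearly the same ratio. Replicate 1 had 16.3 peaks per Mb in the middles and 70.5 in the outer parts (ratio 0.231), and replicate 2 had 10.4 and 45.2 (ratio 0.230). The middle was the sparser zone on all 17 chromosomes, with densities of 4.92 to 20.7 per Mb in middles and 34.3 to 59.4 per Mb in outer parts, so the ranges did not overlap. With 2 libraries of a single condition there are no groups of samples to test, and chromosomes are not replicates, so differences between zones are given as values per library and as counts of chromosomes, with no p-value.

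**Figure D1:**
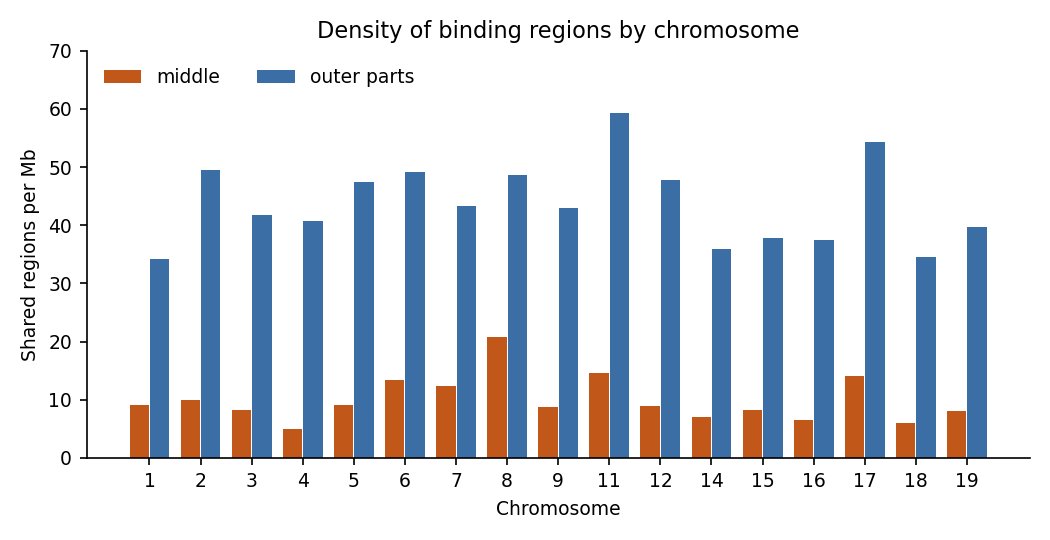
Shared regions per Mb on each of the 17 chromosomes, in the middle (orange, left bar) and in the outer parts (blue, right bar). Every middle bar is lower than its outer bar; the highest middle is that of chromosome 8, at 20.7 per Mb.

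Relative to their level, chromosomes differed more in their middles than in their outer parts. Chromosome 8 had the densest middle, with 396 regions at 20.7 per Mb, against 48.6 per Mb in its outer parts. Chromosomes 11, 17, 6 and 7 followed, with 14.6, 14.0, 13.3 and 12.3 per Mb. Chromosome 4 had the sparsest middle, with 103 regions at 4.92 per Mb, although its outer parts, at 40.7 per Mb, were close to the median of 43.0 over chromosomes. Chromosome 18, with 138 regions at 5.95 per Mb, and chromosome 16, with 99 at 6.54 per Mb, came next. The ratio of middle to outer density ran over the chromosomes between 0.121 and 0.426, with a median of 0.202. Chromosomes with a dense middle also tended to have dense outer parts, with a Spearman rho of 0.794 between the densities of the 17 chromosomes, given as a description because all share both libraries.

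Pooled over the 17 chromosomes, density within the middles fell toward the centre and was lopsided. It was 16.4 per Mb from 30 to 40% of the length, 8.80 from 40 to 50%, 5.62 from 50 to 60% and 8.53 from 60 to 70%. In steps of 5% of the length, the lowest value was 4.68 per Mb, from 50 to 55%, where 188 regions lay. The parts from 30 to 40% and 60 to 70% were both denser than that from 40 to 60% on 4 of 17 chromosomes. The sides differed: 2021 members lay before the centre and 1136 after it. Positions count from the chromosome end that the files number first, which carries no biological meaning, and the excess was on that side on 11 of 17 chromosomes. Chromosome 8 had 366 members before its centre against 30 after it, chromosome 6 had 235 against 38, and chromosome 7 had 189 against 31. Chromosomes 19 and 5 leaned the other way, with 25 against 137 and 34 against 120. The sparsest 5% step lay within the middle on 15 of the 17 chromosomes. The exceptions were chromosome 1, where it ran from 25 to 30%, and chromosome 19, where it ran from 20 to 25%.

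**Figure D2:**
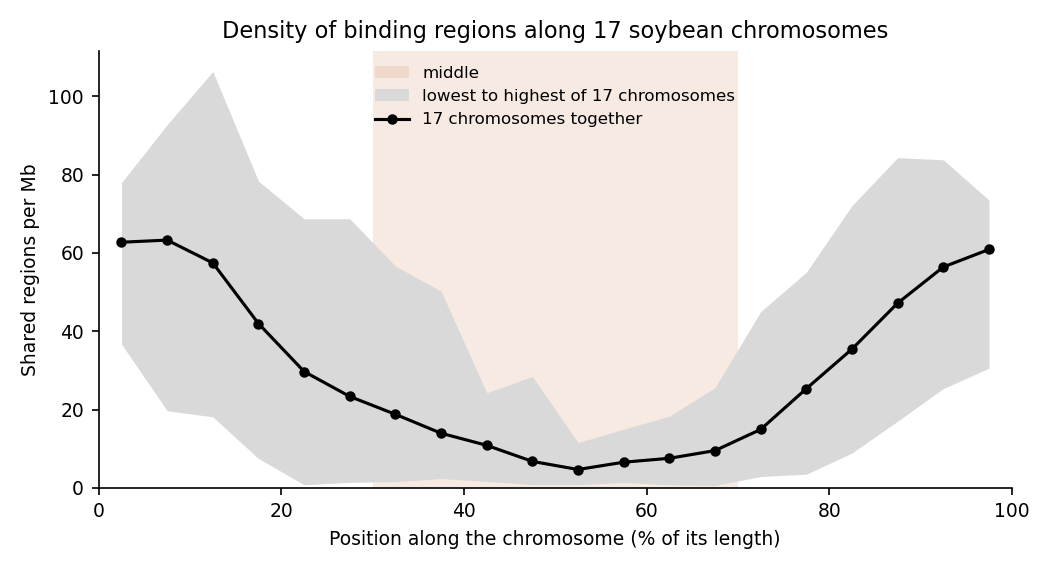
Shared regions per Mb in 20 equal steps along the chromosome length (x axis, % of length). The black line joins the values of the 17 chromosomes pooled, the grey band runs from the lowest to the highest single chromosome, and the shaded part is the middle; the line is lowest, at 4.68 per Mb, from 50 to 55%.

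The regions nearest the limits show what the rule divides. Just inside the lower limit lay a region on chromosome 4 from 15719223 to 15719547, with folds of 5.77 and 4.54 in replicates 1 and 2, and another on chromosome 12 from 12019037 to 12019690, with 10.6 and 8.51. Just outside it lay regions on chromosome 8 from 14331658 to 14332117, with folds of 6.82 and 8.13, and on chromosome 11 from 10373923 to 10374364, with 5.92 and 5.82. Just inside the upper limit lay regions on chromosome 14 from 34251401 to 34251738, with 3.79 and 4.03, and on chromosome 16 from 26501835 to 26502130, with 4.74 and 3.56. Just outside it lay regions on chromosome 1 from 39765539 to 39766097, with 15.8 and 9.11, and on chromosome 7 from 31237912 to 31238341, with 7.83 and 3.82. Folds of 3.79 to 10.6 in replicate 1 inside the limits overlapped those outside them, at 5.92 to 15.8.

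Median binding strength in the middles was close to that in the outer parts. Strength is given as fold, the authors' ratio of ChIP fragments at the peak summit over the local background, with the strongest peak of each list standing for a region. In replicate 1 the median fold was 6.61 in the middles (quartiles 4.86 and 9.60) and 6.51 in the outer parts (4.82 and 9.47). In replicate 2 it was 5.00 in the middles (3.82 and 7.36) and 5.03 in the outer parts (3.88 and 7.36). The medians of the zones thus differed in opposite directions in the libraries, by far less than the libraries differed from each other. Replicate 1 had the higher middle median on 13 of 17 chromosomes and replicate 2 on 6; it was higher in both on 5 chromosomes and lower in both on 3. The number of fragments over the summit (pileup), solved from the deposited values, had medians of 73 in the middles and 73 in the outer parts in replicate 1, and 44 and 45 in replicate 2.

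**Figure D3:**
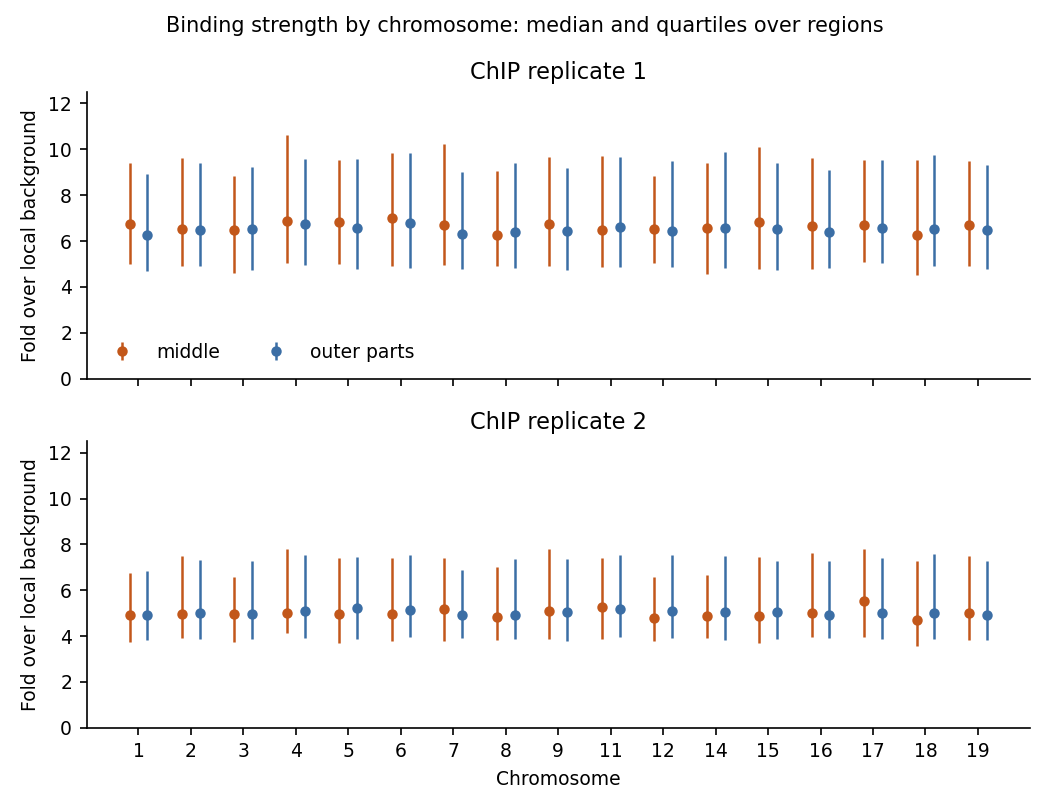
Fold over local background on each chromosome in ChIP replicate 1 (top) and ChIP replicate 2 (bottom); dots are medians and lines run between the quartiles over regions, with the middle (orange) left of the outer parts (blue). Both zones keep to the same range on every chromosome, around 6.61 and 6.51 in replicate 1 and 5.00 and 5.03 in replicate 2.

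Median strength changed little along the middle, while pooled density fell toward the centre. From 30 to 40% of the length, where density was highest, the median folds of 1314 members were 6.66 and 5.01 in replicates 1 and 2. From 40 to 50% they were 6.58 and 4.94. From 50 to 60%, where density was lowest, those of 451 members were 6.53 and 4.92, and from 60 to 70% they were 6.67 and 5.01. Among these parts the medians fell and rose as density did, but by little. In steps of 5% they did not: they were 6.72 and 5.42 from 50 to 55%, the sparsest step. From 55 to 60% they were 6.38 and 4.65. Strong sites kept their share. The strongest 10.0% of all shared regions on these chromosomes, with mean folds of at least 12.03, included 330 members, or 10.5% of the middle regions (Wilson 95% interval 9.43 to 11.6%), and 9.94% of the outer regions (9.54 to 10.3%), and the share was higher in the middle on 9 chromosomes and lower on 8. Their share of the members ran over the chromosomes between 7.25%, on chromosome 1, and 14.2%, on chromosome 15. The local background was slightly lower in the middles, with medians of 9.96 fragments in the middles and 10.1 in the outer parts in replicate 1, and 7.77 and 7.81 in replicate 2. The median was lower in the middle on 14 chromosomes in replicate 1 and on 11 in replicate 2, and on the other 3 and 6 the zones were equal within 0.001 fragments. The part of this in the folds was not tested.

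Among the strongest members of each chromosome, mean folds covered 17.8 to 32.3 (n = 2 replicates for each mean and its SD). The strongest member is called the middle maximum of its chromosome. On 14 chromosomes an outer region had a higher mean fold. The middles held 13.16% of the shared regions. On 3 of the 17 chromosomes the strongest region of the whole chromosome lay in its middle. On chromosome 8 this was the region from 21316513 to 21317359, with folds of 34.997 and 29.7 in replicates 1 and 2 (mean 32.3 ± 3.77, SD), against an outer maximum mean fold of 31.7. On chromosome 16 it was the region from 13050110 to 13051158, with 27.6 and 36.5 (32.0 ± 6.27), against an outer maximum of 23.1. On chromosome 17 it was the region from 12565263 to 12566074, with 32.1 and 22.7 (27.4 ± 6.65), against 25.3. These SDs include the offset between the libraries, so the maxima were also compared within each library. The highest outer folds in replicates 1 and 2 were 32.1 and 31.3 on chromosome 8 and 30.6 and 26.8 on chromosome 17. On both, the middle region was higher in replicate 1 and lower in replicate 2, so the order is not resolved. On chromosome 16 the highest outer folds were 25.8 and 22.7, below the middle region in both replicates.

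Members closer to the chromosome centre reached similar values. The region on chromosome 11 from 17933784 to 17934661, at 51.8% of the length, had folds of 28.7 and 29.4 (29.0 ± 0.472), with pileups of 298 and 245 fragments. The middle maximum of chromosome 3, from 23958672 to 23959782 at 52.4%, had folds of 32.9 and 23.6 (28.2 ± 6.60). That of chromosome 5, from 24777651 to 24778561 at 58.7%, had 28.3 and 24.9 (26.6 ± 2.38). Those of chromosomes 15 and 19 were the most even between replicates beside that of chromosome 11. The chromosome 15 region, from 22620848 to 22621656 at 43.8%, had 24.8 and 25.5 (25.1 ± 0.465), and the chromosome 19 region, from 27647900 to 27648602 at 54.5%, had 21.7 and 21.3 (21.5 ± 0.306).

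The remaining middle maxima lay nearer the edges of the middle. The chromosome 18 maximum, from 19420911 to 19421627, had folds of 28.0 and 23.5 (25.7 ± 3.14), and the chromosome 6 maximum, from 19160333 to 19161055, had 20.6 and 27.6 (24.1 ± 4.91). Chromosome 9 reached 24.8 and 23.3 (24.0 ± 1.01) from 33024938 to 33025552. Chromosome 4, with the sparsest middle, reached 24.1 and 19.7 (21.9 ± 3.14) from 35919910 to 35920540. The maxima of chromosomes 1, 7, 14, 2 and 12 followed, with mean folds of 21.5, 21.4, 21.1, 19.4 and 17.8. The replicates were farthest apart on chromosome 7, from 29901606 to 29902620, with folds of 26.8 and 16.0. Chromosome 12 had the weakest maximum, from 13388087 to 13388627, with 19.4 and 16.1, which ranked 26 among all shared regions of its chromosome by mean fold. Of the 17 middle maxima, 4 were isolated, 5 lay in islands and 8 were neither, by the definitions of isolation and islands used further on. Among all members, 9.57% were isolated and 24.6% lay in islands.

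Width did not set the middles apart. Merged regions had a median width of 437 bp in the middles (quartiles 356 and 551 bp) and 435 bp in the outer parts (355 and 551 bp). The strongest peak of each region, taken within each list, had a median width of 426 bp in the middles and 424 bp in the outer parts in replicate 1, and of 337 bp and 335 bp in replicate 2. Over the chromosomes, the merged median ran between 418 bp (chromosome 12) and 471 bp (chromosome 4) in the middles and between 421.5 and 447 bp in the outer parts, and it was higher in the middle on 10 of 17 chromosomes. As elsewhere, stronger members were wider: among 5 equal classes of members by mean fold, the median width was 348 bp in the weakest and 580.5 bp in the strongest, and peak width and fold had Spearman correlations across members of 0.601 in replicate 1 and 0.670 in replicate 2, against 0.616 and 0.705 across outer regions. Members covered widths between 210 and 2108 bp. The widest, picked with its values known, lay on chromosome 17 from 15256114 to 15258221, at folds of 15.6 and 16.9, and the next, on chromosome 9 from 34351356 to 34353426, measured 2071 bp, with 20.4 in both replicates. Regions with more than 1 peak of a list made up 1.27% of the members (40 regions, Wilson 95% interval 0.932 to 1.72%) and 1.61% of the outer regions (1.45 to 1.79%), with 1.56% over all.

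Members and outer regions had like distances and correlations between the replicates. Because a shared region needs overlapping peaks, its summits had to lie close, so the distances only compare the zones. Summits of both replicates lay a median of 22 bp apart in the middles and 22 bp in the outer parts, and within 50 bp in 81.3% of members and 81.7% of outer regions. The log2 folds of the replicates had a Spearman correlation of 0.834 across members and 0.833 across outer regions. Fold was lower in replicate 2 than in replicate 1 in 81.5% of members, with a median ratio of replicate 2 to replicate 1 of 0.797 in the middles and 0.807 in the outer parts.

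Recovery between the lists was also close, apart from 1 class of peaks. Of the replicate 1 peaks in the middles, 3166 of 5224 (60.6%, Wilson 95% interval 59.3 to 61.9%) had a partner in replicate 2, against 61.5% in the outer parts (60.9 to 62.0%). For replicate 2 peaks in the middles this was 3188 of 3347 (95.2%, 94.5 to 95.9%), against 97.0% in the outer parts (96.7 to 97.2%). The 159 unpartnered replicate 2 peaks of the middles were weak, at a median fold of 2.75, and 76 of them (47.8%) had a local background above 30 fragments, against 98 of 664 (14.8%) in the outer parts. Among peaks below that background, 97.4% of the replicate 2 peaks had a partner in the middles and 97.4% in the outer parts.

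Members with such a high background in either replicate numbered 54, or 1.71% of the members (Wilson 95% interval 1.31 to 2.22%), against 0.576% of the outer regions (0.482 to 0.689%) and 0.726% of all shared regions on the 17 chromosomes. Their share was higher in the middle on 13 of 17 chromosomes. Their folds were low, with medians of 1.79 in replicate 1 and 2.19 in replicate 2, although their pileups reached 399 and 387 fragments. Fold is a ratio to local background, with medians here of 107 and 93.5 fragments, so choosing members by background favours low folds. Chromosome 18 held 11 of these members, chromosome 14 held 7 and chromosome 15 held 6, while chromosomes 12 and 16 held none. Intervals cover counting error only.

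Members stood apart from each other more often than outer regions did. The distance from a region's midpoint to that of the nearest other shared region had a median of 9887 bp in the middles and 4950 bp in the outer parts, with upper quartiles of 33240 bp and 11394 bp. A region was called isolated when no other shared region lay within 100 kb. This held for 302 members, or 9.57% (Wilson 95% interval 8.59 to 10.6%), and for 157 outer regions, or 0.754% (0.645 to 0.881%), while 1.91% of all shared regions on these chromosomes were isolated. The share was higher in the middle on all 17 chromosomes. Replicate 1 peaks alone, without replicate 2, gave lower shares of 4.29% in the middles and 0.315% in the outer parts, from a longer list, and replicate 2 peaks alone gave 8.96% and 0.665%. Among the members, the share was highest on chromosomes 16, 4 and 14, with 23.2%, 19.4% and 18.0% of members, and lowest on chromosome 8, with 1.77%. Over the 17 chromosomes, middle density and the isolated share of members had a Spearman rho of -0.855, given as a description. Isolation, and the islands and empty stretches described further on, use fixed distances, so their numbers depend on density by construction. How much of the difference between the zones goes beyond density was not tested. An isolated member may still have a neighbour that is a peak in 1 list only; when those counted, 123 members (3.90%) and 65 outer regions (0.312%) were isolated.

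**Figure D4:**
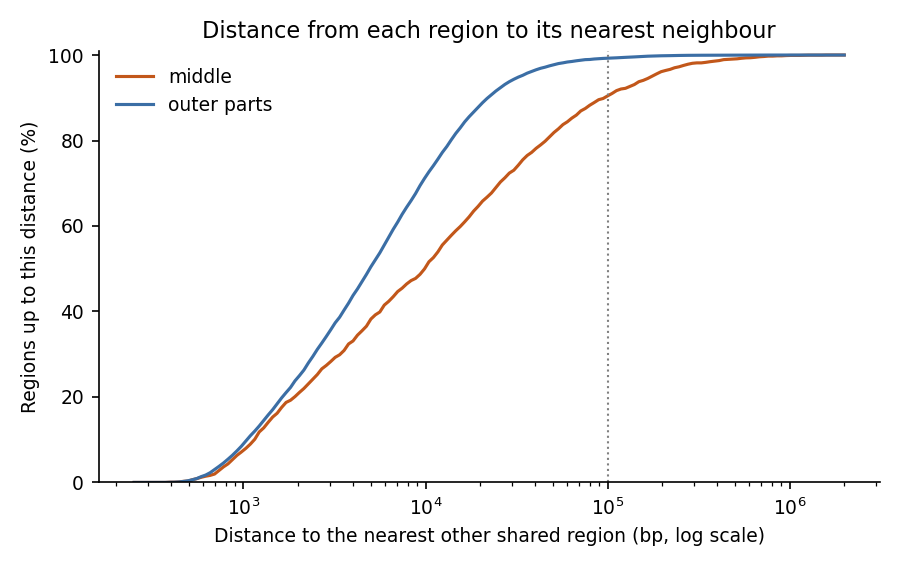
Share of regions (y axis, %) whose nearest other shared region lies within a given distance (x axis, bp, log scale), for the middles (orange) and the outer parts (blue); the dotted line marks 100 kb. The curves lie close together up to about 2 kb, where they reach 20.7% and 24.7%, and part beyond it.

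At short range the middles kept most of the crowding seen in the outer parts. A neighbour within 2 kb was found for 655 members, or 20.7% (Wilson 95% interval 19.4 to 22.2%), and for 24.7% of outer regions (24.1 to 25.3%), against 24.2% over all, although density differed by a factor of 0.227. It was lower in the middle on 13 chromosomes and higher on 4. Within 10 kb the shares were 50.3% in the middles and 71.4% in the outer parts, and within 50 kb 81.6% and 97.7%. Among the parts of the middle, Wilson 95% intervals of the share with a neighbour within 2 kb overlapped, so whether it follows density cannot be told. It was 20.6% from 30 to 40% of the length (18.5 to 22.9%) and 21.6% from 40 to 50% (18.8 to 24.8%). It was 18.6% from 50 to 60% (15.3 to 22.5%) and 21.5% from 60 to 70% (18.5 to 24.7%). On chromosomes 1 and 5 it was 28.5% and 27.3%, and on chromosome 3 it was 12.6%.

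Isolated members had median strengths close to those of crowded ones. In replicate 1 the median fold was 6.72 in isolated members, 6.65 in members of islands and 6.59 in the other members, and in replicate 2 it was 4.95, 5.02 and 5.00. Isolated members were stronger than island members on 6 of the 16 chromosomes with at least 5 of each in replicate 1, and on 8 of 16 in replicate 2. Isolated members made up 9.65% of the weakest of the 5 strength classes and 8.86% of the strongest. Their median width was 433.5 bp, against 448 bp in islands. The middle maxima of chromosomes 11, 15, 18 and 2 were isolated, at 172 kb, 159 kb, 158 kb and 150.4 kb from the nearest shared region.

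A few members lay very far from any other. The farthest, on chromosome 6 from 32862332 to 32862806, was 1562 kb from its nearest neighbour and had folds of 9.94 and 9.64, with pileups of 125 and 69 fragments. It lay between empty stretches of 2.07 Mb and 1.56 Mb. Next came chromosome 1 from 18531334 to 18531989, at 1213 kb, with folds of 7.84 and 5.98, and chromosome 11 from 23025342 to 23025666, at 1164 kb, with 4.51 and 3.93. They were followed by chromosome 19 from 25956800 to 25957244, at 988 kb, with 7.08 and 8.69, and chromosome 5 from 17926975 to 17927562, at 954 kb, with 3.27 and 3.56. In all, 29 members and 4 outer regions had no other shared region within 500 kb. The 5 farthest members thus had folds on both sides of the members' medians.

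Islands of binding were few in the middles and lay mostly from 30 to 40% of the length. An island is a run of at least 5 shared regions whose neighbouring midpoints are at most 25 kb apart. The middles held 108 islands, or 3.36 per 10 Mb, and the outer parts 1433, or 29.7 per 10 Mb. Islands took in 776 members, or 24.6% (Wilson 95% interval 23.1 to 26.1%), against 65.4% of outer regions (64.8 to 66.1%) and 60.0% of all shared regions of these chromosomes. Replicate 1 peaks alone, without replicate 2, formed 248 islands in the middles, and replicate 2 peaks alone 121. Of the 108 islands, 68 lay from 30 to 40% of the length, 24 from 40 to 60% and 16 from 60 to 70%. Islands held medians of 13.6 regions per 100 kb in the middles and 13.2 in the outer parts. The same rule limits the spacing inside islands of both zones, so this likeness is partly set by the definition. Islands were smaller in the middles, with a median of 6 and at most 23 regions, against 7 and 48 in the outer parts.

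Chromosome 8 held 23 of the islands and 193 of the island members, chromosome 6 held 18 islands and chromosome 17 held 12. Together, chromosomes 2, 6, 7, 8, 11 and 17 held 78 of the 108. Chromosome 14 had none, and chromosomes 15 and 16 had 1 each. On chromosome 8, 48.7% of the members lay in islands, on chromosome 2 46.9% and on chromosome 6 41.8%, while on the other chromosomes with an island this was between 2.96% (chromosome 15) and 36.6% (chromosome 11).

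The 5 largest islands held 15 to 23 regions. The first, on chromosome 11 from 10543581 to 10677332, packed 23 regions into 134 kb, with median folds of 5.79 and 4.25 in replicates 1 and 2 and a highest mean fold of 15.5. On chromosome 7, 18 regions spanned 199.9 kb from 15694761 to 15894653, with median folds of 7.57 and 4.85. Another 18 regions on chromosome 8 spanned 156 kb from 17759497 to 17915752, with 6.67 and 5.91 and a highest mean fold of 17.2. On chromosome 2, 16 regions lay within 89.7 kb from 14749973 to 14839629, with 8.46 and 6.61, and on chromosome 11, 15 regions lay within 119 kb from 11128648 to 11247847, with 6.14 and 6.03. Their centres lay at 0.305 to 0.373 of the length. Their median folds lay on both sides of those of all members.

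Nearer the centre islands were small. From 40 to 60% of the length the largest was on chromosome 6 from 21461347 to 21522045, with 11 regions in 60.7 kb, median folds of 6.59 and 4.55 and a highest mean fold of 21.1. An island of 9 regions on chromosome 18, from 33800227 to 33821558, was of another kind: all 9 had a high local background, the median folds were 1.82 and 2.19, and the highest mean fold was 2.55. It was singled out after its values were seen. It was the only one of the 108 made up mostly of high-background regions, and 3 islands held any.

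Long stretches without a shared region took up much of the middles. Counting distances of at least 500 kb from the end of a shared region to the start of the next, and assigning each by its centre, 133 empty stretches lay in the middles and 45 in the outer parts. Their medians were 768 kb in the middles and 633 kb in the outer parts, and 39 in the middles and 10 in the outer parts passed 1 Mb. Cut at the limits, they filled 121.8 Mb or 37.9% of the middles, and 7.40% of the outer parts. On each of the 17 chromosomes their share was higher in the middle. It was highest on chromosome 4 (52.8% of the middle), with chromosomes 18, 19 and 2 next at 50.9%, 48.4% and 47.5%. The lowest share was 25.1%, on chromosome 1, whose longest stretch lay just outside the middle.

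**Figure D5:**
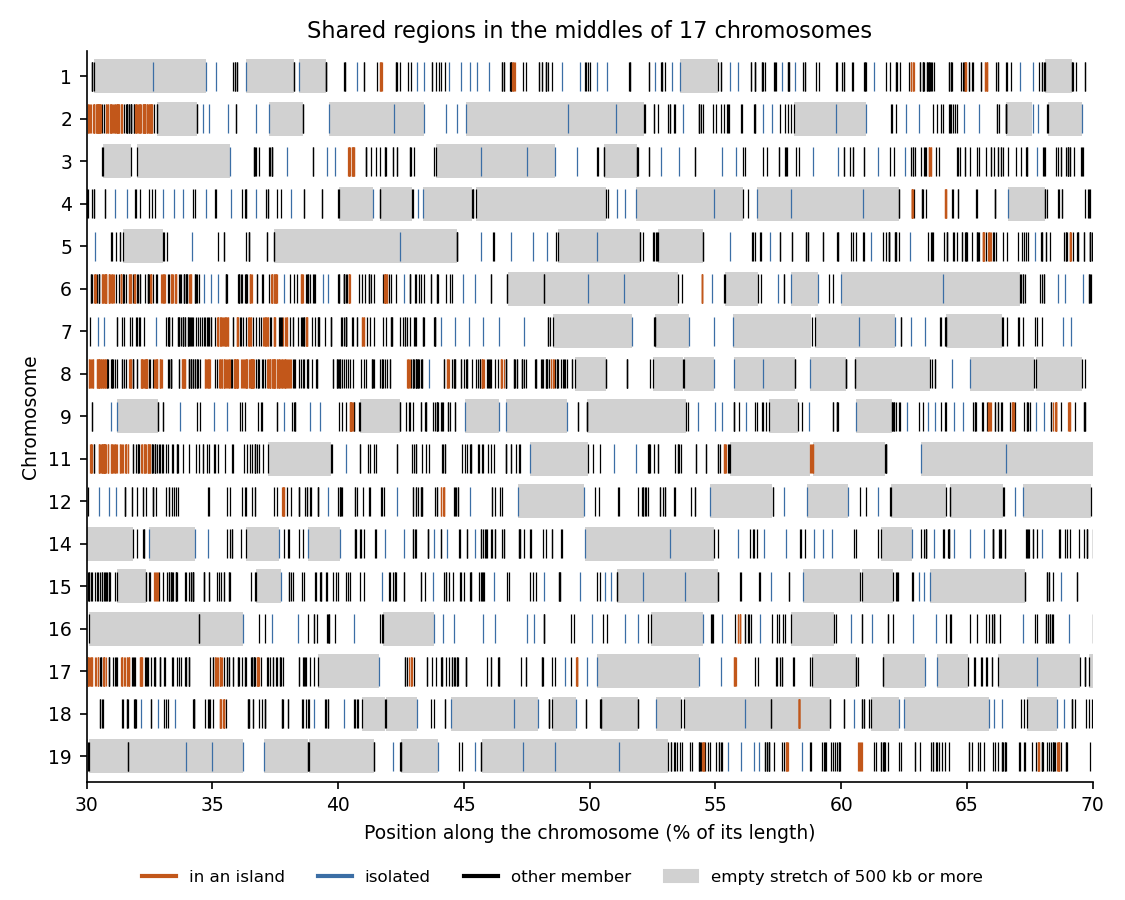
Shared regions (vertical lines) in the middles of the 17 chromosomes (rows), at their position in % of chromosome length, coloured by whether they lie in an island, are isolated or neither; grey boxes are empty stretches of 500 kb or more, and a line inside grey is a region between neighbouring stretches. On chromosomes 2, 6, 7, 8, 11 and 17 most islands lie before 50% of the length, and chromosome 4 has the largest share in grey, 52.8%.

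The 5 longest empty stretches of the middles covered 1.97 to 2.70 Mb. The longest ran on chromosome 4 from 23806845 to 26505158 (2.70 Mb), between a region with folds of 6.93 and 3.45 in replicates 1 and 2 and a region with 9.93 and 10.1. The next were a stretch on chromosome 5 from 15804068 to 17926974 (2.12 Mb) and another on chromosome 6 from 30790501 to 32862331 (2.07 Mb). Stretches of 1.97 Mb followed on chromosome 9 from 25025256 to 27000162 and on chromosome 15 from 32837999 to 34807340. The longest in the outer parts, on chromosome 1 from 14774764 to 16908584, was 2.13 Mb and had its centre at 0.279 of the length. Over the chromosomes, the longest stretch with its centre in the middle ran between 1.07 Mb (chromosome 12) and 2.70 Mb, and it was longer than the longest outer one on 16 of 17, the exception being chromosome 1.

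Empty stretches were not wholly free of peaks. The 133 stretches in the middles held 219 peaks found in replicate 1 only and 19 found in replicate 2 only, 1.95 per Mb in all, and the 45 outer ones held 2.76 per Mb. No peak of either list lay in 35 of the 133, and 100 of them still held a run of at least 500 kb without any peak. In the longest stretch, 2 peaks of replicate 1 and 1 of replicate 2 lay alone, and the longest run without a peak of either list was 2081711 bp. The regions at the ends of the middle stretches had median folds of 6.04 in replicate 1 and 4.55 in replicate 2, below those of all members. Those of the outer stretches were 5.85 and 4.85, also below the outer medians of 6.51 and 5.03. A region between 2 stretches counted for both. Some middle stretches ended at strong sites. On chromosome 16, the stretch from 11392294 to 13048681 ended at a region with folds of 20.1 and 22.7. The maximum of that chromosome lay 1.60 kb beyond, midpoint to midpoint. This pair was singled out after its values were seen. A stretch without a peak is one where none passed the authors' threshold at this depth, and it cannot be called unbound.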

How the data were processed

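ChIP-seq peak lists of 2 ChIP libraries (replicates 1 and 2) were analysed. Per the submitters' processing notes, Bowtie 0.12.7 and MACS2 were used; the sources used here give no settings, genome build or read totals. The authors deposited 1 list per ChIP library, whose peak names carry a q of 0.01. The deposited lists give each peak's fold (a ratio to local background), −log10 p and −log10 q, made by the authors within each library. In 100.0% of peaks, the score deposited by the authors was the whole-number part of 10 times −log10 q. Pileup and local background were solved from the deposited fold (pseudocount 1) and −log10 p with a Poisson tail, and 100.0% of peaks were met within 0.001.

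Overlapping peaks were merged into regions with Python 3.11.15, pandas 2.3.3 and scipy 1.17.1. Neighbours of a region were taken from all shared regions of its chromosome. Chromosome lengths end at the last peak, so real lengths may be longer. Steps were tested on simulated data. Positions are printed 1-based, in the files' own build. The gene table at hand is of assembly 4.0, and on 4 chromosomes peaks lay over 100 kb beyond its last gene and on 6 over 1 Mb short of it, so it was not used, and no genes or sequences are given. Regions named by rule are the strongest member of each chromosome, the 5 largest islands, the 5 longest stretches, the 5 farthest members and the regions nearest the limits. The widest members, the islands of chromosomes 6 and 18 nearer the centre, the longest outer stretch and the chromosome 16 stretch were chosen after their values were seen. The members, definitions and distances were chosen with earlier results of these data known. Alternatives changed the limits, thresholds, overlap, distances and measure, or left out 1 replicate. The replicates are separate biological samples per the labels.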

Additional observations from a re-analysis of the deposited data

How the results depend on the processing

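Alternatives that counted peaks of 1 list alone, or left out high-background regions for density, isolation and empty stretches, were added after seeing the data. No paired analysis was possible because all values come from ChIP libraries of 1 group. The density ratio of middle to outer parts (0.227) moved little, but by more than the SD between the libraries: it was 0.230 to 0.231 without either replicate, 0.243 with limits of 0.25 and 0.75, 0.215 with 0.35 and 0.65, 0.226 and 0.224 at a −log10 q of at least 5 and 10, and 0.225 without high-background regions. The ratio of median folds (1.01) covered 0.983 to 1.01 without either replicate and was 0.989 with −log10 q in place of fold. The ratio of median widths (1.00) was 0.995 with limits of 0.35 and 0.65 and 1.01 once −log10 q was 10 or more. The isolated share of members (9.57%) covered 4.29 to 8.96% without either replicate; it was 15.1% at a −log10 q of at least 10, 18.4% for 50 kb, 3.77% for 200 kb and 3.90% with neighbours of 1 list. The number of islands (108) covered 121 to 248 without either replicate, the higher number being replicate 1 alone; it was 195 with limits of 0.25 and 0.75, 55 with 0.35 and 0.65, 50 at a −log10 q of at least 10, 30 for 10 kb and 325 for at least 3 regions. The number of empty stretches (133) was 337 from 250 kb and 39 from 1000 kb. The share of replicate 1 peaks recovered in the middles (60.6%) was 58.8% at a −log10 q of at least 10 and 57.0% with 50% reciprocal overlap. Changed distances and list lengths alter these values by construction; for the others the cause was not tested.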
